A study of Mus musculus with 6 samples.

Results

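Arterial endothelial cells are the cells that line the arteries and arterioles of the heart, and 1330 of them were found among 9629 endothelial cells and 12493 barcodes kept for analysis. Barcodes entered with 1000 or more UMIs (unique molecular identifiers, each standing for 1 captured RNA molecule), and where the same barcode core occurred in several libraries only the row with most UMIs was used. A cell counted as endothelial with at least 3 UMIs of Pecam1, Cdh5, Egfl7 and Kdr together and at most 1 UMI of the fibroblast, epicardial and macrophage genes Col1a1, Dcn, Upk3b and C1qa. It counted as arterial if it held at least 2 of Hey1, Gja4, Sema3g and Stmn2, no UMI of Nr2f2 or Apln, and fewer than 3 of the interferon-induced genes Ifit1, Ifit2, Ifit3, Isg15 and Rsad2. The members were therefore chosen by measured values, and the levels of these genes in them are a description.

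The Dsp_het group held 3 libraries from Wt1CreERT2:Rosa26mTmG:DspW/F mice, and the control group held 3 libraries from Wt1CreERT2:Rosa26mTmG mice. All mice were C57BL/6 and 3 to 6 months old, and all carried the Cre and the mTmG reporter. The reporter makes cells that have had Cre activity, and their progeny, lose membrane Tomato and gain membrane GFP. GFP-positive non-myocytes were sorted from hearts digested with collagenase II on a Langendorff system and run on the 10x Genomics Chromium platform. Dsp, which encodes the desmosomal protein desmoplakin, has 1 conditional allele in the Dsp_het mice. Cre is driven by Wt1, a transcription factor of the epicardium that endothelial cells can also express. The sort therefore selected for endothelium in which Wt1-driven Cre had acted. A GFP UMI was held by 88.4% of members and 90.6% of other endothelial cells. The labels do not say whether a library was 1 animal, so every p-value measures the spread between these libraries, which may be technical.

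Arterial endothelium is specified by VEGF and Notch signalling, with SOXF transcription factors such as Sox17 acting upstream of Notch ligands and receptors. Notch activates genes such as the Hey transcription factors through RBPJ, and arterial cells are joined by connexins 37 and 40, encoded by Gja4 and Gja5. In the heart the most distal arteriolar cells grade into capillaries, and the cells of larger arteries lie on elastic fibres and smooth muscle.

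Members per library numbered 248, 186 and 107 in Dsp_het and 267, 177 and 345 in control. Their UMIs summed to 767228, 813686 and 592694 in the Dsp_het libraries and to 965127, 746803 and 1626772 in the control libraries, with a median per cell between 2875.5 and 5136. Xist, an X-linked RNA of female cells, stood at 576 CPM (counts scaled to a common library total) in Dsp_het library 2 and 458 CPM in control library 3, and between 4.89 and 12.2 CPM in the other libraries, so each group held 1 library with Xist. Of 13183 barcode cores, 1689 occurred under several library suffixes, and 65 of the 1330 members had such a core. Dsp itself had 0, 1 and 1 UMIs in arterial cells of the Dsp_het libraries and 0, 0 and 0 UMIs in those of the control libraries. That depth does not allow the genotype labels to be checked in these cells.

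The rule took 1330 of 1679 endothelial cells that held at least 2 of the 4 genes. Of the 349 left out, 87 had Nr2f2, 33 had Apln and 272 had the interferon genes, with some cells meeting several criteria. Stmn2 was held by 1224 members, Hey1 by 1118, Gja4 by 538 and Sema3g by 458, and 550 members had Hey1 and Stmn2 alone. Hey1, the Notch-induced transcription factor, averaged 458 CPM in arterial and 44.5 CPM in other endothelial cells. Gja4 averaged 197 CPM in arterial and 13.6 CPM in other endothelial cells. Sema3g, a secreted class 3 semaphorin, averaged 153 CPM in arterial and 9.96 CPM in other endothelial cells. Stmn2, a microtubule-binding stathmin, was less restricted, with 1005 CPM in arterial cells, 581 CPM in the venous comparison cells and 289 CPM in all other endothelial cells. The venous comparison cells held Nr2f2, at least 1 of Vwf, Ackr1, Selp and Bgn, and at most 1 rule gene.

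The start-site windows of both rule genes with an entry in the RefSeq promoter table are shown because the text turns on these genes, together with that of Nrarp, a Notch target that the rule did not use. Each covers 250 bases before and 50 bases after the annotated start on build GRCm38.p6 and is written 5′ to 3′ along the gene's strand. Capitals mark the RBPJ core TGGGAA or its reverse complement TTCCCA, or the SOX core ACAAT or its reverse complement ATTGT, searched on both strands with no overlapping hits. Gja4 lies on the minus strand at chr4:127313990-127314289, Sema3g on the plus strand at chr14:31217623-31217922 and Nrarp on the plus strand at chr2:25180508-25180807.
Gja4: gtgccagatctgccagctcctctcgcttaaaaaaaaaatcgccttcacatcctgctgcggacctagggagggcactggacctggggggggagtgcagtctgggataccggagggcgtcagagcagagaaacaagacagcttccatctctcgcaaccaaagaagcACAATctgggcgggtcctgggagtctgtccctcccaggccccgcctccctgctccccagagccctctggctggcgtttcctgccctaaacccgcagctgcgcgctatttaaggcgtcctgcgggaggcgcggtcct
Sema3g: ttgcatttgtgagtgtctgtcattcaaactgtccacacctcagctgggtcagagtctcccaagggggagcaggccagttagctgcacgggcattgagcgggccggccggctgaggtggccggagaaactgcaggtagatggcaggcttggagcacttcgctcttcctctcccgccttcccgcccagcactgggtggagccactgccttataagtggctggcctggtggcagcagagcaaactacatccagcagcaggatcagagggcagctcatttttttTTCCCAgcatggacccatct
Nrarp: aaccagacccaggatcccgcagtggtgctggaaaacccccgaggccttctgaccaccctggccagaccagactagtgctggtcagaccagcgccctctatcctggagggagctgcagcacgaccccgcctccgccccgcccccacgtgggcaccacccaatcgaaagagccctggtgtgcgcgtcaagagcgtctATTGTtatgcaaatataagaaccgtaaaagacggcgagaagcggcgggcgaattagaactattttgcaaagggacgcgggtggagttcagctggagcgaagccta
The Gja4 and Nrarp windows hold 1 SOX core each and the Sema3g window holds 1 RBPJ core. Among 32544 promoter windows of 300 bases, 25.4% hold the RBPJ core and 30.8% the SOX core, so a match is common and is only a description.

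The label was checked with arterial genes that the rule did not use, and they marked the members. Of 31 such genes with at least 50 CPM in either set, 28 were higher in arterial than in other endothelial cells in all 6 libraries, and their median difference was 0.94 on the log2(CPM + 20) scale. Over all 3462 genes at that level, 684 (19.8%) were higher in all 6 libraries, 506 (14.6%) were lower in all 6, and the median difference was 0.02. These values are a description, since both sets come from the cells on which the rule was applied. Of 18 venous genes other than Nr2f2, whose absence the rule required, 13 were lower in arterial than in other endothelial cells in all 6 libraries and 0 were higher in all 6. Of 24 capillary and fatty acid uptake genes, 7 were higher and 7 were lower in all 6. The venous and capillary lists were counted at any level, so the shares at 50 CPM are not their background. Over all 31055 genes at any level, 1093 were higher and 1507 were lower in arterial cells in all 6 libraries.

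Gja5, connexin 40 of arterial gap junctions, ranged from 23.6 to 46.6 CPM in arterial cells (median 34.3) and from 1.07 to 3.59 CPM in other endothelial cells (median 1.75). A Gja5 UMI was held by 126 of 1330 members (9.47%), 55 of 8299 other endothelial cells (0.663%) and 0 of 1074 barcodes with fibroblast markers, which allows a share of up to 0.279% there. The median depth was 3795 UMIs in members, 3819 in other endothelial cells and 7383 in the fibroblast-marker barcodes. Gja1, connexin 43, was less different, with a median of 219 CPM in arterial and 142 CPM in other endothelial cells.

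Of 33 Notch pathway genes outside the rule, 7 were higher and 6 were lower in arterial cells in all 6 libraries. Their median difference was -0.01 on the log2(CPM + 20) scale, on which genes with few counts lie near 0. They were counted at any level, where 1093 of all 31055 genes were higher and 1507 lower in all 6. Sox17, a SOXF factor of arterial endothelium, ranged from 363 to 491 CPM in arterial cells (median 432) and from 122 to 198 CPM in other endothelial cells (median 141). Mecom, a zinc-finger factor, averaged 422 CPM in arterial and 184 CPM in other endothelial cells, and the 2 ranges did not overlap. Among ligands, Dll4 averaged 173 CPM in arterial and 109 CPM in other cells, and Jag1 averaged 66.6 CPM in arterial and 27.5 CPM in other cells. Jag2 averaged 137 CPM in arterial and 85.1 CPM in other cells. The receptor Notch1 averaged 296 CPM in arterial and 178 CPM in other endothelial cells, and Notch4 averaged 90.3 CPM in arterial and 68.4 CPM in other cells. Of Notch targets, Nrarp, a feedback inhibitor, averaged 112 CPM in arterial and 86.0 CPM in other cells, whereas Hes1 was lower in arterial cells at 265 CPM against 353 CPM. Hey2 and Heyl were near 0, at 0.888 and 1.26 CPM in arterial cells.

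Of 28 vascular guidance genes, also counted at any level, 8 were higher and 5 lower in arterial cells in all 6 libraries (median difference -0.01). Efnb2, the ephrin ligand of arteries, ranged from 211 to 283 CPM in arterial cells (median 237) and from 81.6 to 114.5 CPM in other endothelial cells (median 87.2). Unc5b, a netrin receptor, averaged 193 CPM in arterial and 69.4 CPM in other cells. Cxcl12, a chemokine of coronary artery growth, averaged 5117 CPM in arterial and 2396 CPM in other cells. Its receptor Cxcr4 averaged 122 CPM in arterial and 42.2 CPM in other cells. The range of each of these 4 genes in arterial cells lay above that in other cells. Nrp1, a VEGF and semaphorin co-receptor often used as an arterial marker, did not separate the sets, with a median of 755.5 CPM in arterial and 775 CPM in other endothelial cells.

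**Figure D1:**
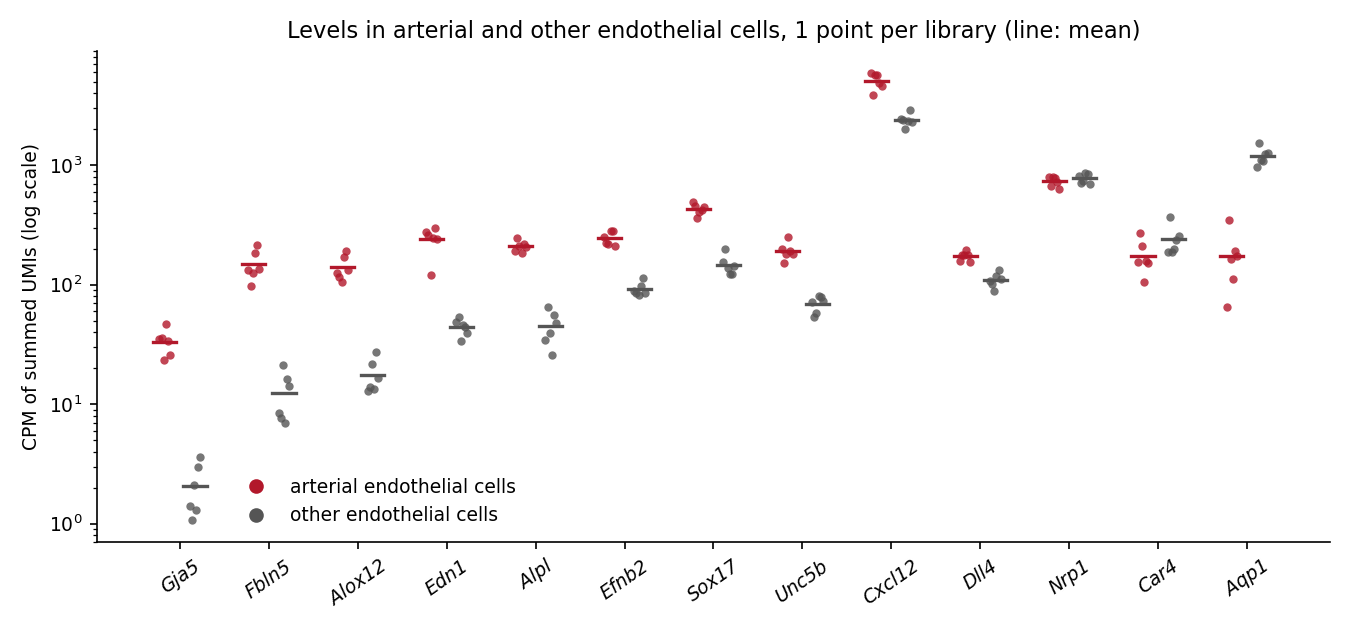
Levels of 13 genes in CPM (log axis) in arterial and other endothelial cells, with points for the 6 libraries and lines for means. None of the genes was used by the rule. Gja5, Fbln5, Alox12, Edn1 and Alpl stand apart with no overlap between the sets, Nrp1 and Car4 overlap, and Aqp1 is lower in arterial cells in every library.

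The genes with the highest ratios included matrix and vasoactive genes. Fbln5, an elastic fibre glycoprotein, ranged from 97.1 to 217 CPM in arterial cells (median 134) and from 6.91 to 21.2 CPM in other endothelial cells (median 11.4), a difference of 2.35 on the log2(CPM + 20) scale. It was held by 26.2% of members and 2.57% of other endothelial cells, but also by 81.8% of barcodes with fibroblast markers. Alox12, a lipoxygenase, averaged 141 CPM in arterial and 17.6 CPM in other cells, and Edn1, the vasoconstrictor endothelin 1, averaged 239.5 CPM in arterial and 44.2 CPM in other cells. Alpl, tissue-nonspecific alkaline phosphatase, averaged 210 CPM in arterial and 44.9 CPM in other endothelial cells. Fibronectin (Fn1), Col8a1, Tgfb2 and Clu were also among the 20 highest ratios, at 145, 93.1, 61.3 and 76.4 CPM in arterial cells against 27.0, 17.9, 8.84 and 15.3 CPM in other cells. Eln, tropoelastin, was lower rather than higher in arterial cells, with 23.4 CPM against 41.8 CPM. Klf2, Klf4 and the nitric oxide synthase Nos3 were not higher in all 6 libraries, and Nos3 averaged 103 CPM in arterial and 115 CPM in other endothelial cells.

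A few enzymes with related substrates were picked out after their values had been seen, and Sat1 among them lies outside the ranking rule. Amd1, S-adenosylmethionine decarboxylase, averaged 126 CPM in arterial and 28.3 CPM in other endothelial cells, and its near-identical copy Amd2 averaged 264 CPM in arterial and 59.8 CPM in other cells. Counts of such copies are uncertain, since reads may be split between them. Azin1, which counters the inhibitor of ornithine decarboxylase, averaged 119 CPM in arterial and 34.6 CPM in other cells. Odc1, ornithine decarboxylase itself, was among the 10 lowest ratios, at 11.7 CPM in arterial and 72.3 CPM in other cells. Sat1, which acetylates spermidine and spermine, averaged 242 CPM in arterial and 127 CPM in other cells.

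Outside the rule, the lowest ratio was that of Aqp1, a water channel. It ranged from 65.2 to 347 CPM in arterial cells (median 169.7) and from 959 to 1549 CPM in other endothelial cells (median 1170). Aplnr, the apelin receptor of veins and capillaries, averaged 50.6 CPM in arterial and 269 CPM in other cells, and the adhesion molecule Vcam1 averaged 16.2 CPM in arterial and 103 CPM in other cells. The fatty acid transporter Cd36 was abundant in both sets, at a mean of 2633 CPM in arterial and 2607 CPM in other cells. It was held by 98.0% of members. Rbp7, a retinol-binding protein, was abundant in both but higher in arterial cells, at 4158 CPM against 1411 CPM.

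The members were not uniform. Among endothelial cells that passed the other criteria, 3558 held none of the 4 rule genes, 2101 held 1, 805 held 2, 372 held 3 and 153 held all 4. Just outside the threshold, at 1 gene, Fbln5 averaged 10.2 CPM and Gja5 1.99 CPM. Just inside it, at 2 genes, they averaged 60.2 and 10.7 CPM, and with all 4 genes 426 and 104 CPM. Bmx, a tyrosine kinase of large-artery endothelium, averaged 3.32, 9.87, 41.6 and 58.7 CPM at 1, 2, 3 and 4 genes. Vegfc, a growth factor for lymphatic and coronary vessels, averaged 113, 120, 347 and 496 CPM at the same steps. Sox17 differed less at the upper steps, with 192, 357, 522 and 557 CPM. Cxcl12 was highest at 3 genes (5531 CPM) and stood at 3651 CPM with all 4. The capillary carbonic anhydrase Car4 took the other direction, with 260, 230, 123 and 37.6 CPM. Median depth was 3725, 3679, 3851 and 4263 UMIs at these steps, and a deeper cell has more chance to hold a rule gene.

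**Figure D2:**
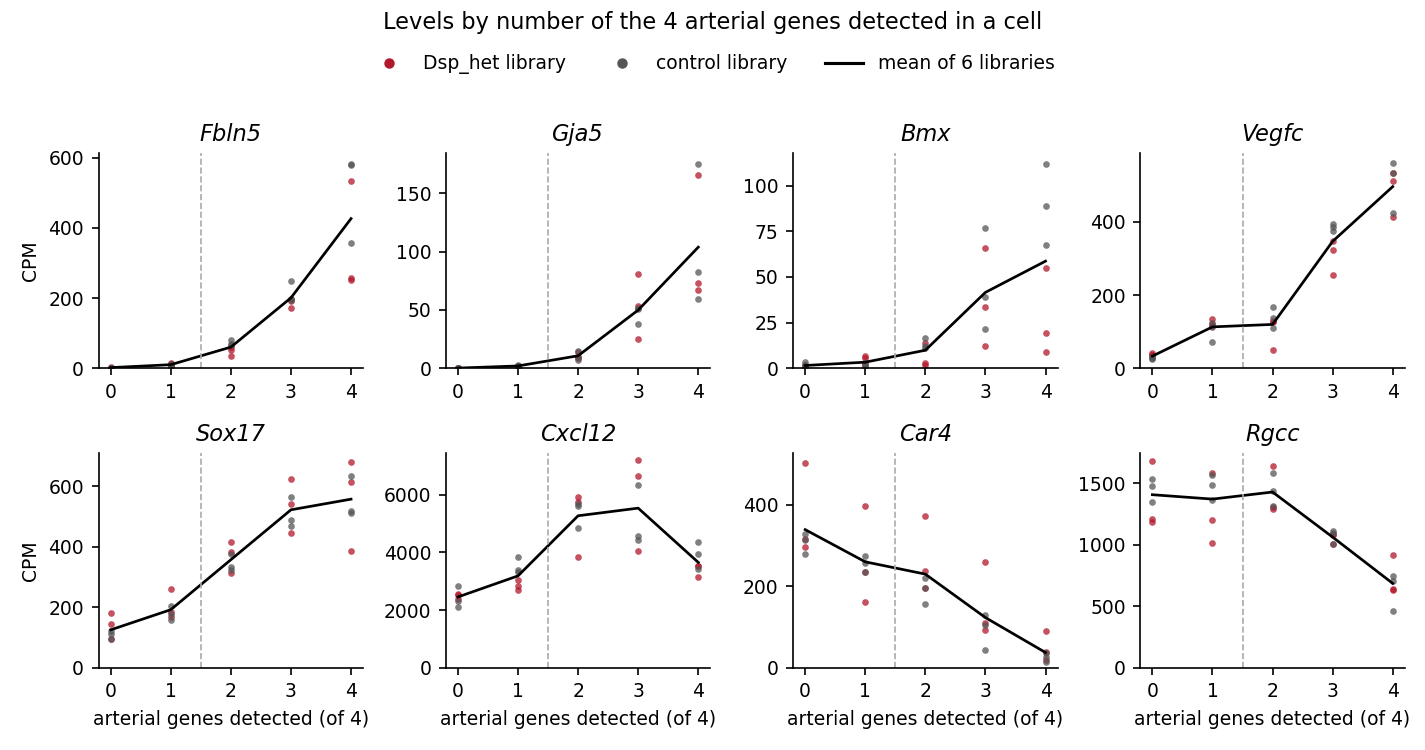
Mean CPM of 8 genes by the number of rule genes held by a cell (0 to 4), with points for the 6 libraries and a dashed line at the threshold between 1 and 2. Fbln5, Gja5 and Bmx are highest in cells with all 4 genes, Cxcl12 at 3 genes, and Car4 is lowest at 4.

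The 126 members with a Gja5 UMI differed from the 1204 without one, and this too is a description because it splits the members by a measured value. The cells with Gja5 were few, at 23, 17 and 10 in the Dsp_het libraries and 28, 17 and 31 in the control libraries. Fbln5 averaged 435 CPM with Gja5 and 115 CPM without, and Igfbp4, an IGF-binding protein, 325 CPM with and 73.8 CPM without. Bmx averaged 77.8 CPM with Gja5 and 19.2 CPM without. Ace, the angiotensin-converting enzyme, averaged 207 CPM with Gja5 and 55.5 CPM without, and the secreted protease Htra1 averaged 131 CPM with and 19.9 CPM without. Of 19 capillary and fatty acid uptake genes at the level compared, 0 were higher and 11 were lower in the cells with Gja5 in all 6 libraries (median difference -0.63 on the log2(CPM + 20) scale, against -0.03 over all genes compared). Among them Car4 averaged 12.6 CPM with Gja5 and 194 CPM without, and lipoprotein lipase (Lpl) averaged 165 CPM with and 573 CPM without. Of 3460 genes compared, 179 were higher and 171 lower in the cells with Gja5 in all 6 libraries.

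The first comparison of genotypes concerned the number of arterial cells. They made up 13.1, 12.7 and 14.6% of endothelial cells in the Dsp_het libraries, against 13.2, 14.2 and 15.2% in the control libraries. The means were 13.4% ± 0.98 in Dsp_het and 14.2% ± 0.98 in control (SD, n = 3 each), the groups overlapped, and a two-sided exact permutation test gave p = 0.4. The difference was -0.77 percentage points. It was -0.58 and -0.40 without Dsp_het library 1 or 2, and -1.33 without Dsp_het library 3, when the groups did not overlap. It was -1.25, -0.78 and -0.27 without control library 1, 2 or 3. With every cell thinned to 2000 UMIs the shares were 9.83% in Dsp_het and 10.7% in control (exact p = 0.2). Of all kept barcodes, arterial cells were 8.63, 10.5 and 9.77% in Dsp_het, against 11.5, 11.4 and 11.98% in control. These groups did not overlap, at 9.64% ± 0.96 in Dsp_het and 11.6% ± 0.305 in control, and the exact p of 0.1 is the smallest that 3 against 3 libraries can give. Restricted to barcode cores found under 1 suffix, the shares were 11.5% in Dsp_het and 12.3% in control, the groups overlapped and the exact p was 0.5. In sorted cells such shares also depend on how many other GFP-positive cells were recovered, which cannot be told apart from a change in arterial cells.

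Among arterial cells, the share holding a Gja5 UMI at 2000 UMIs per cell was 14 of 206, 8 of 177 and 3 of 103 in the Dsp_het libraries and 10 of 233, 12 of 160 and 11 of 326 in the control libraries. The means were 4.74% ± 1.95 in Dsp_het and 5.06% ± 2.17 in control (SD, n = 3 each), with overlap and an exact permutation p of 0.8. Without thinning, 9.25% of Dsp_het and 9.69% of control members held one. The sign of the difference turned to higher in Dsp_het without Dsp_het library 3 (by 0.60 percentage points) and without control library 2 (by 0.91 percentage points).

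**Figure D3:**
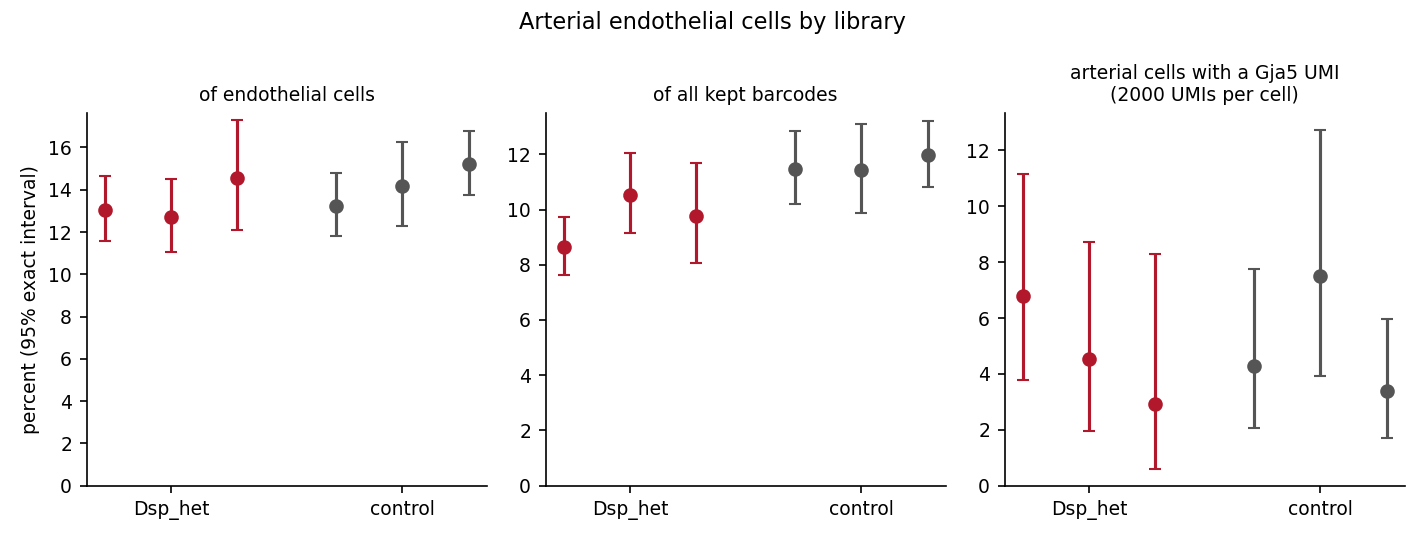
Arterial cells in percent of endothelial cells, in percent of all kept barcodes, and members with a Gja5 UMI at 2000 UMIs per cell, by library, with 95% exact binomial intervals. The Dsp_het and control libraries overlap in the first and the last panel, and in the middle panel all 3 Dsp_het libraries lie below the control libraries.

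Gene expression in arterial cells was compared between genotypes by summing counts per library and testing 7472 genes with edgeR's quasi-likelihood test. A single gene, Lrrc3b, passed an adjusted p of 0.05, which is 0.0134% of the genes tested. At an unadjusted p under 0.05 there were 315 genes (4.22%), and the libraries did not overlap for 627 genes (8.39%). The count depended on single libraries. It was 4, 9 and 3 without Dsp_het library 1, 2 or 3, and 12, 1 and 0 without control library 1, 2 or 3.

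Lrrc3b encodes a leucine-rich repeat membrane protein and lies on the minus strand at chr14:15357515-15438987 (GRCm38). Its normalised CPM (CPM after edgeR's TMM scaling) were 137, 124 and 142 in the Dsp_het libraries, against 60.6, 71.7 and 49.1 in the control libraries. These rest on 103, 97 and 84 UMIs in Dsp_het and 59, 53 and 74 UMIs in control. All 3 Dsp_het libraries lay above all 3 control libraries, and Lrrc3b rose with a log2 fold change of 1.18 ± 0.18 (SE; edgeR adjusted p = 0.0153). Without control library 3 the log2 fold change was 1.03 and the edgeR adjusted p 0.256. A Lrrc3b UMI was held by 25.2% of members, 11.6% of other endothelial cells and 0.0931% of barcodes with fibroblast markers. Its start-site window, on the minus strand at chr14:15438938-15439237 (GRCm38.p6, RefSeq), is shown because it is the called gene. It holds 1 RBPJ core, in capitals.
Lrrc3b: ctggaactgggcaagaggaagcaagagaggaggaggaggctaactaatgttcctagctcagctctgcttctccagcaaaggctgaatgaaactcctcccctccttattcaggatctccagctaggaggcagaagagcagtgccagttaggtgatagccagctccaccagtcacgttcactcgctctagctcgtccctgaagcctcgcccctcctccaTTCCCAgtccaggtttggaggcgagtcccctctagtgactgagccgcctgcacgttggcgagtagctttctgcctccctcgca

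Lrrc3b also rose in capillary cells, here endothelial cells with Car4 and Rgcc and no rule gene. It stood at 60.3, 65.5 and 79.9 CPM in Dsp_het, against 37.8, 31.5 and 18.5 CPM in control, with a log2 fold change of 1.25 ± 0.22 (SE; edgeR adjusted p = 0.034). The arterial and capillary cells come from the same libraries, so this is not independent evidence. In all other endothelial cells together 0 of 11208 genes passed in edgeR, with 506 (4.51%) at an unadjusted p under 0.05. The log2 fold change of Lrrc3b was 0.88 there (edgeR adjusted p = 0.557), and the difference of the genotype effect between arterial and other endothelial cells was 0.24 (edgeR adjusted p = 0.987).

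Slc26a10, of the SLC26 family of anion transporters, missed the threshold. It stood at 362.7, 316 and 305 normalised CPM in Dsp_het, against 182, 151.5 and 217.5 in control, with no overlap (log2 fold change 0.82 ± 0.15, edgeR adjusted p = 0.080). Without Dsp_het library 2 it passed, at 0.85 (edgeR adjusted p = 0.0347). In capillary cells its log2 fold change was 0.92 and passed (edgeR adjusted p = 0.034). It was 1 of 4 genes that passed among 8190 tested there (0.0488%). In all other endothelial cells Slc26a10 stood at 212, 243 and 184 CPM in Dsp_het, against 103, 102 and 137 CPM in control. In venous comparison cells it stood at 123, 229 and 110 CPM in Dsp_het, against 45.7, 44.1 and 97.3 CPM in control. Neither of these overlapped, and neither passed in edgeR. Igfbp5, an IGF-binding protein, had 76, 155 and 11 UMIs in Dsp_het, against 1, 21 and 24 UMIs in control, so the groups overlapped (log2 fold change 2.91, edgeR adjusted p = 0.0993). With only barcode cores found under 1 suffix its log2 fold change was 0.07 (edgeR adjusted p = 0.999). It passed without Dsp_het library 2 or 3, with log2 fold changes of 2.11 and 3.36 (edgeR adjusted p = 0.035 and 0.00272). Xdh, Ccdc80 and Pttg1 completed the genes with the smallest p among those higher in Dsp_het, with log2 fold changes of 0.71, 1.05 and 0.77 and edgeR adjusted p of 0.537, 0.537 and 0.747.

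Of the genes that were lower in Dsp_het, 0 passed in edgeR and 0 in DESeq2, and 134 had an unadjusted edgeR p under 0.05. Mgp, an inhibitor of vascular calcification, stood at 86.7, 43.3 and 39.0 normalised CPM in Dsp_het, against 168.5, 81.2 and 131 in control (log2 fold change -1.17, edgeR adjusted p = 0.372). Dsp_het library 1 lay above control library 2, and without Dsp_het library 1 Mgp passed (log2 fold change -1.63, edgeR adjusted p = 0.0485). An Mgp UMI was held by 12.3% of members, 10.7% of other endothelial cells and 97.2% of barcodes with fibroblast markers. Ndufa4l2 and Cox4i2, mitochondrial subunits that are abundant in mural cells, had log2 fold changes of -1.92 and -0.98 (edgeR adjusted p = 0.422 and 0.949). Without control library 3 these were -1.08 and -0.53, and without control library 1 they were -2.34 and -1.26 and passed (edgeR adjusted p = 0.000866 and 0.0439). Ndufa4l2 also passed without the 5% of members with most UMIs and with the replicate block (edgeR adjusted p = 0.0351 and 0.0335). Without members that held a UMI of any of 9 mural genes, the log2 fold changes of Mgp, Ndufa4l2 and Cox4i2 were -0.53, -0.50 and -0.45. Fbln5 stood at 135, 101 and 125.5 normalised CPM in Dsp_het, against 182, 219 and 147 in control, and Nrarp at 94.7, 89.2 and 93.3 in Dsp_het, against 148, 133 and 129 in control. Neither overlapped, and neither passed, with log2 fold changes of -0.59 and -0.56 and edgeR adjusted p of 0.935 and 0.897. In all other endothelial cells Nrarp was also lower without overlap, at 71.5, 79.4 and 69.8 CPM in Dsp_het, against 110, 98.5 and 87.0 CPM in control. Fbln5 overlapped there.

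**Figure D4:**
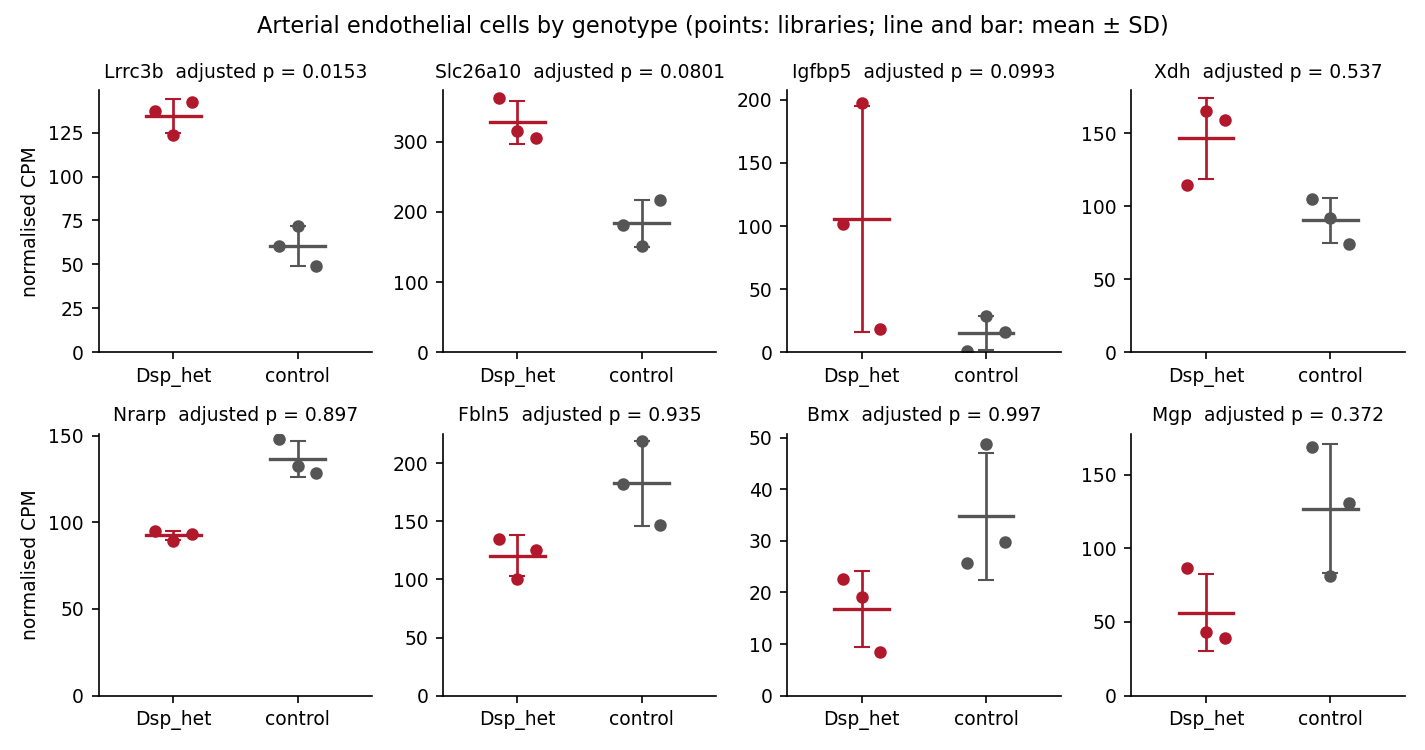
Normalised CPM of 8 genes in arterial cells of the Dsp_het and control libraries, with points for libraries and mean ± SD (n = 3 each). The groups do not overlap for Lrrc3b, Slc26a10, Xdh, Nrarp, Fbln5 and Bmx, and they overlap for Igfbp5 and Mgp; only Lrrc3b passed the edgeR test.

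Among the rule genes, whose levels in members were fixed in part by the choice of cells, Hey1 stood at 596, 412 and 366 normalised CPM in Dsp_het, against 505.5, 453 and 481.5 in control. Gja4 stood at 255, 172 and 161 in Dsp_het, against 242.5, 207 and 167 in control. Gja5, which the rule did not use, stood at 36.0, 37.0 and 23.8 in Dsp_het, against 46.2, 33.8 and 27.9 in control. All 3 overlapped between genotypes. Bmx, Alox12 and Vegfc had log2 fold changes of -0.95, -0.48 and -0.37, and Car4 one of 0.60, with edgeR adjusted p of 0.997 for Bmx, Alox12 and Car4. Of 35 tested arterial genes outside the rule, 13 were higher and 22 lower in Dsp_het. Their median log2 fold change was -0.08, against -0.0001 over all 7472 genes. None passed in edgeR, and 4 of the 35 had an unadjusted p under 0.05, all lower. Over all 7472 genes 315 (4.22%) had such a p, 134 of them lower.

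Other lists were described in the same way, and none of their members passed. Over all 7472 genes tested, 3733 were higher and 3739 lower in Dsp_het. Of 23 tested Notch genes, among them the rule gene Hey1, 13 were higher and 10 lower in Dsp_het (median log2 fold change 0.02). Of 25 elastic fibre and basement membrane genes, 15 were higher and 10 lower (median 0.08), and of 16 vascular tone genes 10 were higher and 6 lower (median 0.10). The capillary list had 19 of 22 genes higher with a median of 0.06, and the venous list 7 of 11 with a median of 0.03. Of 15 desmosome and adherens junction genes 8 were higher and 7 lower (median 0.03), and plakoglobin (Jup), a partner of desmoplakin, stood at 289, 360 and 351 normalised CPM in Dsp_het, against 308, 318 and 313 in control. The heat shock and unfolded protein list had 16 of 24 genes lower with a median of -0.20. The interferon list, part of which the rule used, had 19 of 27 lower with a median of -0.08. Further lists were also one-sided, with 11 of 13 MHC genes and 10 of 13 mitochondrially encoded genes lower. Of the canonical WNT genes 9 of 11 were higher, as were 9 of 11 VEGF and apelin genes. Over all 7472 genes, 315 (4.22%) had an unadjusted edgeR p under 0.05, 181 higher and 134 lower. Such a p was reached by 3 of 22 capillary genes, all higher, and by 3 of 24 heat shock genes, all lower, which are few genes. It was reached by 2 of 11 venous and 2 of 25 elastic fibre and basement membrane genes, all lower. In the Notch, desmosome and interferon lists 1 gene each reached it, each lower, and 0 of 16 vascular tone genes did. GFP, the reporter, was 4271, 3945 and 4824 normalised CPM in Dsp_het, against 3316, 3467 and 3820 in control, with no overlap (log2 fold change 0.30, edgeR adjusted p = 0.9999).

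RNA of other cell types was present in the members and varied between libraries. The 6 pericyte markers summed to 40.4, 245 and 363 CPM in Dsp_het and to 220, 391 and 804 CPM in control, with Rgs5 the most abundant. The 6 smooth muscle markers summed to 28.7, 72.5 and 72.6 CPM in Dsp_het and to 85.0, 126 and 92.2 CPM in control. The 7 cardiomyocyte markers summed to 9.12, 1521 and 50.6 CPM in Dsp_het and to 517, 103 and 179 CPM in control, and 1 cell held 1191 of the 1238 such UMIs in Dsp_het library 2 and 1 cell held 486 of 499 in control library 1. The 8 fibroblast markers summed to 132, 72.5 and 84.4 CPM in Dsp_het and to 44.6, 46.9 and 87.3 CPM in control, which overlap. Among them Dcn, which the endothelial rule limited, stood at 62.6, 23.4 and 25.3 CPM in Dsp_het. In control Dcn stood at 5.18, 13.4 and 19.1 CPM, with no overlap. Lymphocyte markers summed to at most 1.23 CPM. The part of these cells in the results was not tested beyond leaving out the cells that held their markers.

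Whether the genotype effect in arterial cells differed from that in the other endothelial cells was tested as an interaction, with library as a block. Of 10695 genes, 7 passed (0.0655%), all with a more negative effect in arterial cells, and 537 (5.02%) had an unadjusted p under 0.05. The genes were Rgs5, S100a6, Vwf, Vegfc, Stmn2, Mgp and Crip1, of which Stmn2 is a rule gene. None of them passed the edgeR test of genotype in arterial or in other endothelial cells alone. The count was 4, 15 and 1 without Dsp_het library 1, 2 or 3, and 6, 5 and 4 without control library 1, 2 or 3.

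Vegfc stood at 215, 227 and 169 CPM in arterial cells of Dsp_het, against 235, 284 and 271 CPM in those of control. In other endothelial cells it stood at 110, 126 and 150 CPM in Dsp_het, against 92.4, 106 and 91.1 CPM in control. The arterial values did not overlap and were lower in Dsp_het, although after TMM scaling 236 in Dsp_het library 2 exceeded 233 in control library 1. The other endothelial values were all higher in Dsp_het, and the difference of the log2 effects was -0.78 ± 0.14 (SE; edgeR adjusted p = 0.021). S100a6, a calcium-binding protein, stood at 1113, 832 and 877 CPM in arterial cells of Dsp_het, against 1002, 1052 and 982 CPM in control, which overlap. In other endothelial cells it stood at 620, 354 and 446 CPM in Dsp_het, against 291, 381 and 299 CPM in control, which overlap through library 2 of each (difference -0.66 ± 0.11, edgeR adjusted p = 0.00953). Vegfc missed the threshold without Dsp_het library 3 (-0.56) and without control library 2 or 3 (-0.79 and -0.70). S100a6 missed it without Dsp_het library 1 (-0.57) and without control library 3 (-0.63).

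Vwf, von Willebrand factor, stood at 43.0, 18.4 and 40.5 CPM in arterial cells of Dsp_het, against 66.3, 38.8 and 36.3 CPM in control. In other endothelial cells it stood at 146, 112 and 188 CPM in Dsp_het, against 118, 59.5 and 80.1 CPM in control (difference -1.23 ± 0.21, edgeR adjusted p = 0.021). Mgp had a difference of -1.76 ± 0.33 (edgeR adjusted p = 0.0332), with 166, 80.5 and 182 CPM in other endothelial cells of Dsp_het, against 58.4, 96.2 and 120 CPM in control. Crip1 had a difference of -0.44 ± 0.08 and Stmn2 one of -0.63 ± 0.12 (edgeR adjusted p = 0.0376 and 0.028). Stmn2 is a rule gene, so its levels in arterial and in other endothelial cells were fixed in part by the choice of cells. The differing effect of Stmn2 is therefore only a description. Rgs5, a pericyte gene, had a difference of -1.05 ± 0.14 (edgeR adjusted p = 0.00117). Without Dsp_het library 3 the calls of Vwf (-1.17), Mgp (-1.40), Crip1 (-0.38), Stmn2 (-0.57) and Rgs5 (-0.80) were lost. Without Dsp_het library 1 those of Mgp (-2.07) and Crip1 (-0.45) were lost. Without control library 1 the calls of Vwf (-1.17), Stmn2 (-0.51) and Crip1 (-0.45) were lost, without control library 2 those of Vwf (-1.16) and Crip1 (-0.46), and without control library 3 those of Stmn2 (-0.58), Crip1 (-0.38) and Rgs5 (-1.02).

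The mix of other endothelial cells differed between libraries. Cells with venous markers were 5.33, 6.11 and 14.2% of the other endothelial cells in Dsp_het, against 4.97, 3.64 and 3.69% in control. In both genotypes Vwf, Mgp, Vegfc, S100a6, Stmn2 and Crip1 had higher mean CPM in these venous cells than in all other endothelial cells together. Rgs5 did so in control only (279 against 221 CPM), with 45.7 against 231 CPM in Dsp_het. Vwf, Mgp and Vegfc also lay above their arterial means in both genotypes, and Vwf helped to choose the venous cells. Set against the venous cells alone, S100a6, Vwf, Vegfc, Stmn2, Mgp and Crip1 did not pass, and the difference of Rgs5 was positive at 1.66 (edgeR adjusted p = 0.00039). Within the venous cells 7 of 6005 genes passed (0.117%), all lower in Dsp_het, namely Kcnj8, Higd1b, Ctgf, Ndufa4l2, Bmp4, Rgs5 and Sept4. Kcnj8 and Rgs5 are among the 6 pericyte markers, and the choice of venous cells set no limit on mural genes. Kcnj8 averaged 0.92 normalised CPM in venous cells of Dsp_het and 87.5 in those of control. The part of pericyte RNA in these calls was not tested. Rgs5 fell there with a log2 fold change of -2.51 (edgeR adjusted p = 0.0334), a larger value than the -1.05 in arterial cells, which did not pass. Set against the capillary cells alone, S100a6 passed with -0.77 (edgeR adjusted p = 0.00368). Vegfc had -0.63 against venous and -0.54 against capillary cells, Mgp -1.06 and -0.90, and Crip1 -0.48 and -0.24. Vwf had -0.26 against venous and -0.20 against capillary cells. Stmn2 is at 0 in capillary cells by rule, and Vwf was too low there for a genotype effect.

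**Figure D5:**
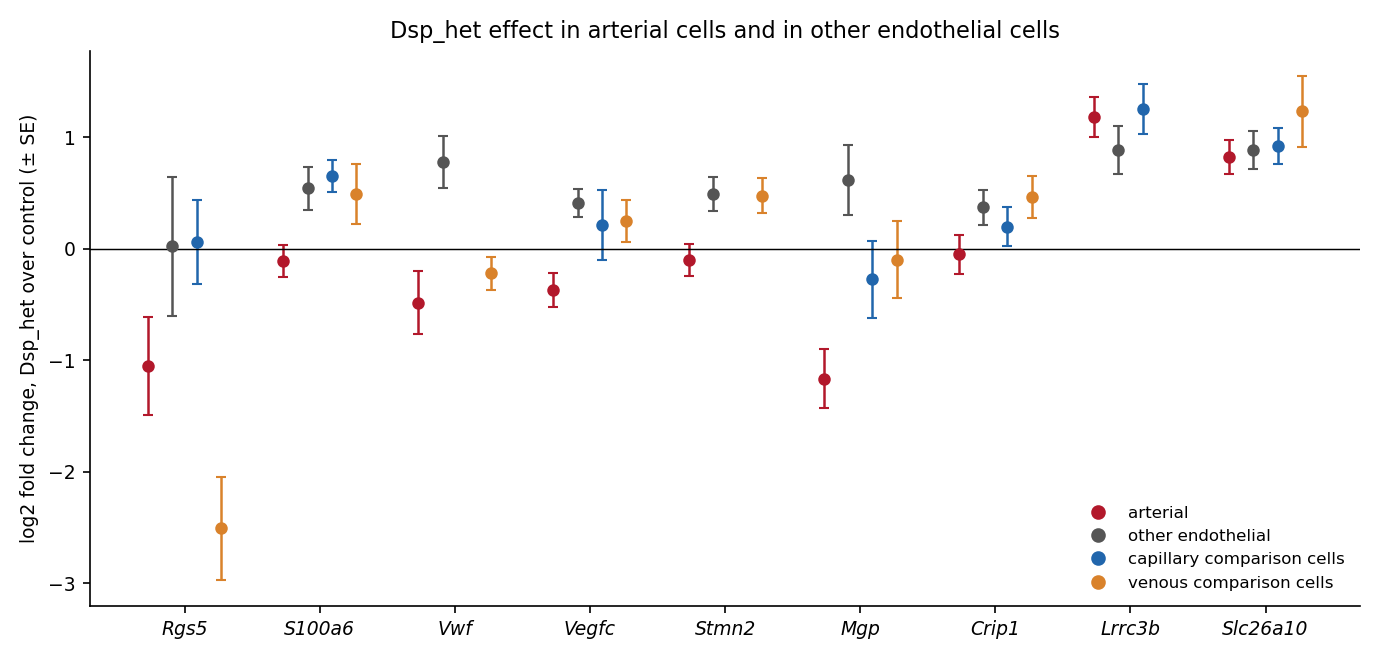
Log2 fold change of Dsp_het over control ± SE in arterial, all other endothelial, capillary and venous cells, for the 7 genes with a differing effect and for Lrrc3b and Slc26a10. Stmn2, among the 7, is a rule gene. Lrrc3b and Slc26a10 are above 0 in arterial, capillary and all other endothelial cells. The effects of Vwf, Mgp and Vegfc are below 0 in arterial and above 0 in other endothelial cells.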

How the data were processed

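The authors deposited a matrix of raw UMI counts (31055 genes by 18283 barcodes) with a table of barcode totals. Per the labels' protocols, libraries were made on the 10x Chromium system. Per the submitters' processing notes, the genome was GRCm38 and Seurat was used; an aligner is not named in the sources used here. Barcode suffixes were matched to the sample numbers in the labels, and 0 columns were left unused.

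Counts of members were summed per library and tested with edgeR 4.0.16 (quasi-likelihood, TMM, filterByExpr with a minimum count of 10) in R 4.3.3, with Benjamini-Hochberg adjustment over all genes tested, a threshold of 0.05 and no covariate. The interaction kept library as a block. P-values are two-sided. DESeq2 1.42.0 was an alternative, and other cell filters and left-out libraries were tried. The edgeR steps were tried on simulated counts that gave every gene the same spread between libraries. That trial does not show how the steps perform on these data. Shares were compared by exact permutation tests over libraries, with 95% exact binomial intervals that cover counting error only. No doublet caller was run; an alternative left out the 5% of members with most UMIs. Descriptions used log2(CPM + 20).

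Named genes were, by genotype, those past the threshold with separated libraries and at least 20 CPM, and, since fewer than 10 passed, also the 5 smallest p in each direction; for the interaction, 5 in each direction; for the description, the 20 highest and 10 lowest ratios among genes with at least 50 CPM; and a set of arterial genes that was always included. The members, lists and tests were chosen with earlier results of these data known.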

Additional observations from a re-analysis of the deposited data

Results flagged for a closer look

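The Dsp_het effect differed between arterial and other endothelial cells for 7 genes by the edgeR interaction test, arterial minus other. The differences of log2 effects were -1.05 for Rgs5, -0.66 for S100a6, -1.23 for Vwf, -0.78 for Vegfc, -0.63 for Stmn2, -1.76 for Mgp and -0.44 for Crip1. In other endothelial cells alone the log2 fold changes were 0.02, 0.54, 0.78, 0.41, 0.49, 0.61 and 0.37 for the same genes, and none passed. Stmn2 is a rule gene, so its levels in both sets were fixed in part by the choice of cells. Rgs5 stood at 32.6, 238 and 344 CPM in arterial cells of Dsp_het, against 199, 366 and 649 CPM in those of control. In other endothelial cells Rgs5 stood at 50.9, 197 and 444 CPM in Dsp_het, against 90.7, 233 and 338 CPM in control. Without cells that held a UMI of 9 mural genes, which do not include Rgs5, all 7 still passed. The share of venous cells among other endothelial cells in Dsp_het library 3 (14.2%) was the highest of the 6, and without that library S100a6 alone passed of the 7. The part of mural RNA or of the venous share in these differences was not tested.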

How the results depend on the processing

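The number of genes changed by genotype was 1 and moved to 2 with DESeq2, 61 with no filter on low counts, 6 with the replicate block, 3 with at most 10% mitochondrial UMIs, 3 with barcode cores under 1 suffix, 2 with at least 3 rule genes, 2 with no UMI of Col1a1, Dcn, Upk3b or C1qa, and 4 without the 5% of members with most UMIs. Of the named genes, 2, 9, 6, 3, 2, 2, 2 and 4 passed in the same settings. Chosen after seeing the data, leaving out cells with a mural UMI or with over 1 cardiomyocyte UMI gave 3 genes each (3 of the named genes each), and leaving out the 2 libraries with Xist gave 11 (3 of the named genes). Leaving out 1 library gave 0 to 12 genes, 0 to 3 of them named. Lrrc3b kept a positive log2 fold change, between 1.03 and 1.299, over the libraries left out. Slc26a10 passed in 10 alternatives, Igfbp5 in 9 and Mgp in 5.

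The 7 differing effects became 2 against venous cells, 3 against capillary cells, 19 with at most 10% mitochondrial UMIs, 16 with barcode cores under 1 suffix, 30 with at least 3 rule genes, 4 with no UMI of Col1a1, Dcn, Upk3b or C1qa, and, added later, 12 without mural and 12 without cardiomyocyte UMIs. Leaving out 1 library gave 1 to 15. Against venous cells Rgs5 turned to 1.66 and Lrrc3b to -0.92, and Lrrc3b was -0.084 against capillary cells. Without the libraries with Xist the log2 fold changes of Stmn2 and Crip1 turned to 0.0485 and 0.13. Over the libraries left out they ranged from -0.18 to 0.00498 for Stmn2 and from -0.21 to 0.11 for Crip1. The difference in the share of members with Gja5 was 1.87 percentage points at 4000 UMIs and ranged from -1.34 to 0.91 over the libraries left out. The causes were not tested.

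Deviations of same-numbered libraries from their group means correlated at 0.02, -0.10 and -0.08. Those of libraries with different numbers correlated at between -0.03 and 0.10. Deviations from a mean of 3 libraries are tied to each other, so these values cannot settle whether the replicate numbers pair the libraries. With the replicate block 6 genes passed. Low counts limit Gja5, Bmx and Dsp in particular.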
